A study of Homo sapiens with 90 samples.

Results

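TXNIP and 5 genes of the glucose-sensing axis around it were followed in A673 cells, an Ewing sarcoma line, after exposure to a fungicide or a herbicide. The 6 genes were TXNIP and ARRDC4 (targets), MLXIP, MLX and MLXIPL (transcription factors) and TXN (the protein that TXNIP binds). Every probe set annotated to exactly 1 of these symbols was taken, which gave 17 of the 54613 probe sets tested, or 6 of 19774 genes. They comprised 3 probe sets of TXNIP, 1 of ARRDC4, 4 of MLXIP, 6 of MLX, 1 of MLXIPL and 2 of TXN. TXNIP was selected on its change at 10 µM imazalil, which was among the most negative on the array, and the other genes were taken as its partners in the axis. The values of that contrast are therefore given as a description, with no test, for all 6 genes.

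The treated groups received fenbuconazole, imazalil or 2,4-D for 24 h at 1 of 9 concentrations (0.001 µM the lowest, 10 µM the highest), each on 3 arrays, and the control wells received the DMSO vehicle, which made up 0.2% of the medium of treated and control wells alike. Fenbuconazole, a triazole, and imazalil, an imidazole, are fungicides that inhibit fungal lanosterol demethylase, whereas 2,4-D is a phenoxyacetic acid herbicide that mimics auxin. The cells were 1 line, plated at 26000 per well, and its 3 replicates came from independent cell batches according to the methods. Of 7 measured Ewing sarcoma markers, 6 stood above the 90th percentile of their set, against 0 of 4 hepatocyte and 0 of 4 luminal breast markers.

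Each chemical formed a set of 30 columns that had been normalized separately, with array medians from 2.76 to 2.83 (fenbuconazole), 3.34 to 3.46 (imazalil and 2,4-D) on the log2 scale. Levels were thus read within a set only. The labels name the same 3 DMSO controls, with the same run numbers, in all 3 sets. Between same-numbered DMSO columns, after centring, r was 0.867 to 0.878 for imazalil and 2,4-D, but 0.105 to 0.185 for fenbuconazole and imazalil and 0.119 to 0.198 for fenbuconazole and 2,4-D. The fenbuconazole DMSO columns thus go against their labels, and which arrays they hold was not settled. Every fenbuconazole value given relative to DMSO rests on those columns, and the values against the other 8 concentrations do not. The contrasts of imazalil and 2,4-D against DMSO share their controls, and by the labels those of fenbuconazole share them too.

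MondoA, encoded by MLXIP, and its paralogue ChREBP, encoded by MLXIPL, are basic helix-loop-helix leucine zipper proteins that sense glucose 6-phosphate. Each pairs with MLX, enters the nucleus and binds carbohydrate response elements, in which a pair of CACG-type E-boxes is separated by 5 bases. TXNIP is the best known MondoA target. Its protein, an alpha-arrestin, binds the redox protein thioredoxin (TXN) and promotes the removal of the glucose transporters GLUT1 and GLUT4 from the cell surface. ARRDC4 encodes a related alpha-arrestin and is likewise a MondoA target.

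The promoters of the members whose sequence carried an E-box are shown because these motifs are the sites through which MondoA and MLX are known to act. Windows of 300 bases around the start sites were taken from RefSeq (GRCh38.p14). They were searched on both strands for CACGTG, for its variant CACGAG, for a pair of CACGNG boxes separated by 5 bases (whose letters can also be those of the single motifs) and for CCAAT, the NF-Y box. Capitals mark the fixed letters of the motifs found, and ATTGG is CCAAT on the other strand.
TXNIP, chr1:145996610-145996729, minus strand: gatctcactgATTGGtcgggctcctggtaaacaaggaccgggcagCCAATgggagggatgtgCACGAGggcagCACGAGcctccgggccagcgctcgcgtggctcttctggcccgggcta
ARRDC4, chr15:97960483-97960602, plus strand: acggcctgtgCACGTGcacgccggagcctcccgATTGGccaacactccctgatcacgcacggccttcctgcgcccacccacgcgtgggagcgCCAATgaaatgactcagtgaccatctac
MLX, chr17:42567010-42567089, plus strand: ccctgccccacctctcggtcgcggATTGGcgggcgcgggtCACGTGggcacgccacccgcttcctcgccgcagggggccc

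The spaced pair lay at -88 to -72 from the TXNIP start site, as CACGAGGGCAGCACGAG, and 20 of 35116 promoter windows (0.057%) held that pattern. ARRDC4 had a single CACGTG at -210 and MLX at -50, a motif present in 7.26% of windows. CACGAG was present in 6.78% and CCAAT in 34.6%. The MLXIP window held only a reverse CCAAT box, and no motif was found in the windows of MLXIPL and TXN or at another TXNIP start site in the table. The genes lie on chromosomes 1 (TXNIP, 145992435 to 145996579), 7 (MLXIPL, 73593202 to 73647907), 9 (TXN, 110243810 to 110256507), 12 (MLXIP, 122078756 to 122147344), 15 (ARRDC4, 97960703 to 97973833) and 17 (MLX, 42567100 to 42573203) of that build.

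At 10 µM imazalil, the contrast that selected the gene, TXNIP was lower than in DMSO on all 3 of its probe sets. On 201010_PM_s_at, the brightest, it read 6.50, 7.33 and 7.19 in the 10 µM arrays of replicates 1, 2 and 3, against 7.68, 7.80 and 7.44 in the DMSO arrays. The groups did not overlap, and replicate 1 was the lowest treated array. In bulk RNA, fewer cells with the transcript and less of it per cell cannot be told apart. On 201009_PM_s_at it read 6.37, 6.65 and 6.46 at 10 µM and 7.15, 7.60 and 7.02 in DMSO, again without overlap. On 201008_PM_s_at it read 6.38, 6.65 and 6.41 at 10 µM and 7.23, 7.45 and 6.64 in DMSO, where the lowest DMSO array fell within the treated range. The log2 changes were -0.63 (SE 0.21), -0.76 (SE 0.13) and -0.63 (SE 0.17), or 0.645, 0.589 and 0.648 of the DMSO level. Among all 54613 changes these were the 4th, the lowest and the 5th lowest. Without replicate 1 the first of them was -0.36. In all, 3.66% of probe sets had 3 arrays at 10 µM imazalil below all 3 DMSO arrays, and 4.31% had 3 above them, which held for 0 of the 17.

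Against the 24 arrays at the other 8 imazalil concentrations the changes of TXNIP were -0.59, -0.69 and -0.67. All 3 arrays at 10 µM lay below the 24 others on 201008_PM_s_at and 201009_PM_s_at, and 1 of 3 did so on 201010_PM_s_at. That order held for 0.0549% of all probe sets, and 0.011% of them passed limma in this comparison, which is given here as a description. The arrays at 10 µM are those of the contrast that chose TXNIP, so their low position here is not separate support. On the last probe set the replicate 1 arrays already read 7.14 at 1 µM and 7.12 at 3 µM, below the 7.89 and 7.66 of replicate 2 and the 7.35 and 7.52 of replicate 3.

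**Figure D1:**
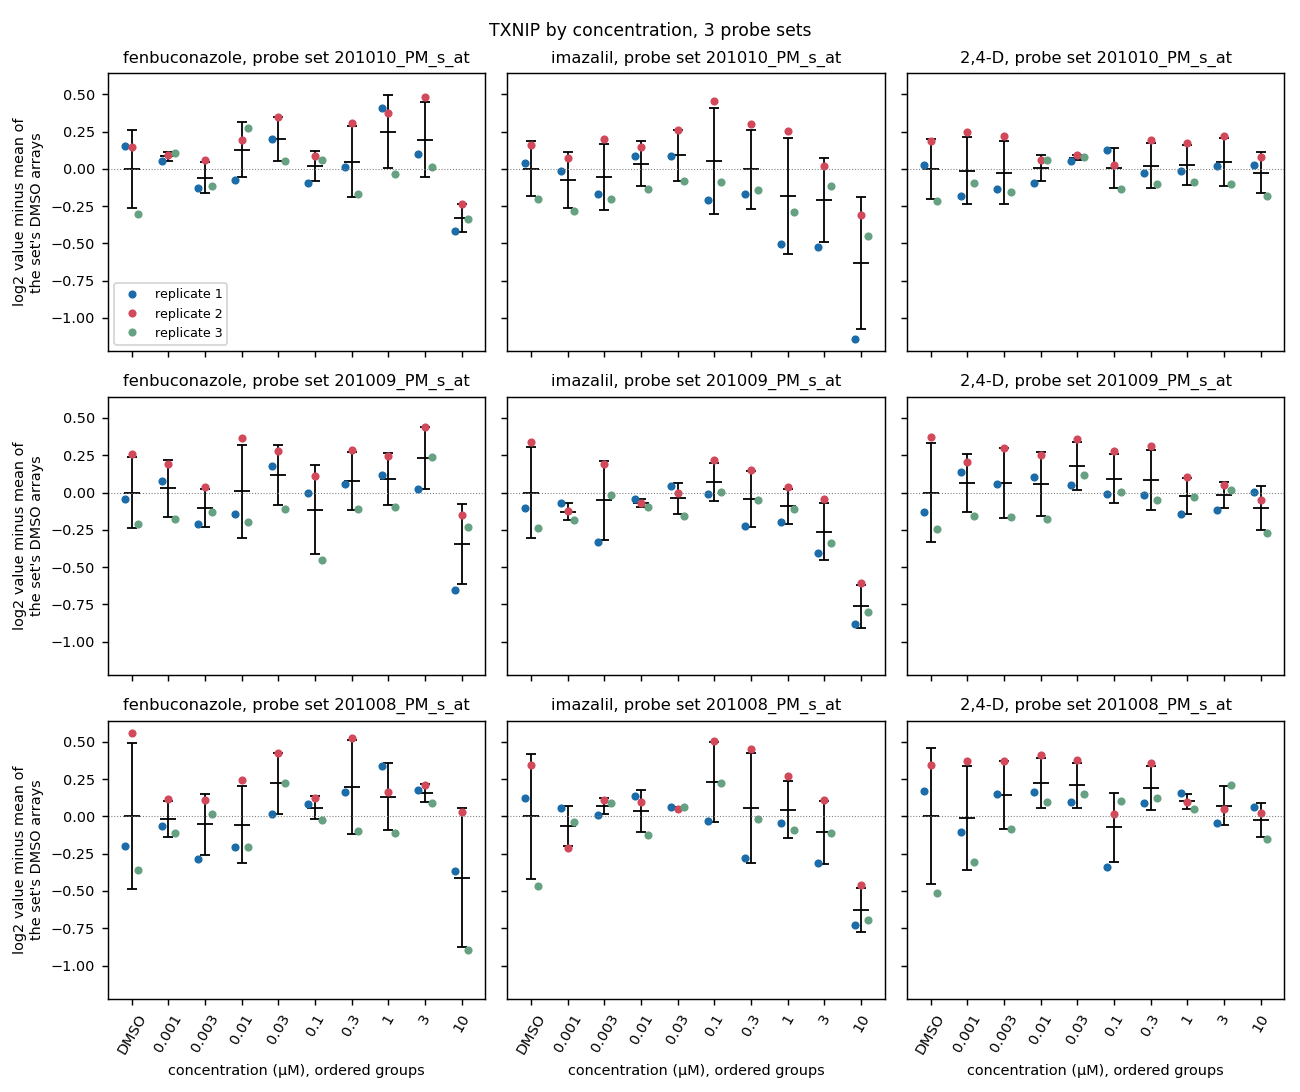
TXNIP on its 3 probe sets (rows) in the fenbuconazole, imazalil and 2,4-D sets (columns), drawn against concentration (µM, horizontal axis, evenly spaced groups that start with DMSO). The vertical axis gives the log2 difference from the DMSO mean of that set, with single arrays as points coloured by replicate number and the mean and SD of 3 arrays as bars. The 10 µM mean was the lowest of each imazalil and fenbuconazole panel, with means of -0.63 and -0.33 on 201010_PM_s_at, against -0.03 for 2,4-D. It was also the lowest of the 2,4-D panel of 201009_PM_s_at, but not of that of 201008_PM_s_at. In the 2,4-D panel of 201010_PM_s_at it was level with 0.003 µM (-0.0252 against -0.0247).

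Fenbuconazole, the triazole, gave TXNIP values outside the contrast that chose the gene. At 10 µM, 201010_PM_s_at read 6.40, 6.58 and 6.48 in replicates 1, 2 and 3, against 6.97, 6.96 and 6.52 in DMSO. All 3 treated arrays were below DMSO replicates 1 and 2, and DMSO replicate 3 fell among them. The mean was 6.49 ± 0.09 at 10 µM and 6.82 ± 0.26 in DMSO (SD, n = 3 each), a log2 change of -0.33 (SE 0.14, unadjusted 95% interval -0.62 to -0.04) that did not pass the test (limma, adjusted p = 0.657). The other probe sets of TXNIP gave -0.34 (201009_PM_s_at, adjusted p = 0.723) and -0.41 (201008_PM_s_at, adjusted p = 0.719). Without replicate 1 the change on 201010_PM_s_at was -0.21. Over all 17 probe sets of the 6 genes, limma called 0 at an adjusted p of 0.05, as it did for 0% of the 54613 tested, with 4 of the 17 and 3823 of the 54613 at an unadjusted p under 0.05.

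The same arrays were also set against the other fenbuconazole concentrations. On 201010_PM_s_at all 3 arrays at 10 µM lay below the 24 arrays at 0.001 to 3 µM, the lowest of which read 6.65. In all, 0.103% of probe sets showed that order. The change was -0.44 (SE 0.11, interval -0.66 to -0.22), which did not pass (adjusted p = 0.307). With the replicate number as a block it did not pass either (limma, adjusted p = 0.0799). The other probe sets gave -0.49 (adjusted p = 0.536) and -0.39 (adjusted p = 0.596), with 2 and 1 of 3 arrays at 10 µM below the 24 others. Between same-numbered arrays, 10 µM was lower than 3 µM by 0.52, 0.72 and 0.35 on 201010_PM_s_at. Of the 17 probe sets 0 were called in this comparison and 5 had an unadjusted p under 0.05, beside 0.00366% of all probe sets called.

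At 10 µM 2,4-D the level of TXNIP was close to that in DMSO. It read 7.78, 7.84 and 7.58 on 201010_PM_s_at at 10 µM in replicates 1, 2 and 3, and 7.79, 7.94 and 7.54 in DMSO, so the groups overlapped throughout. The change was -0.03 (SE 0.12, interval -0.28 to 0.23, adjusted p = 1), and against the other 8 concentrations it was -0.04 (interval -0.23 to 0.15, adjusted p = 0.98). The probe sets 201009_PM_s_at and 201008_PM_s_at were at -0.10 and -0.02 against DMSO, and at -0.17 and -0.13 against the other 8 concentrations. Of the 17 probe sets 0 were called against DMSO, where 0% of all were called and 0 of the 17 had an unadjusted p under 0.05, and 0 against the other 8 concentrations, where 0.00183% were called and 1 of the 17 had an unadjusted p under 0.05. All 3 arrays at 10 µM lay below the 3 DMSO arrays for 0 of the 17 (3.8% of all probe sets) and below the 24 other treated arrays for 0 (0.0696%).

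The compounds could be compared at 10 µM for 1 pair without the contrast that chose TXNIP. The change at 10 µM against the other 8 concentrations was 0.40 log2 units more negative for fenbuconazole than for 2,4-D on 201010_PM_s_at (difference -0.40, SE 0.14, interval -0.67 to -0.12). This difference did not pass over all probe sets (limma, adjusted p = 0.991), and 0% of them did, with 1 of the 17 at an unadjusted p under 0.05. On 201009_PM_s_at the difference was -0.22 (interval -0.56 to 0.12) and on 201008_PM_s_at -0.36 (interval -0.73 to 0.003). Both of these intervals included 0. The changes against DMSO at 10 µM stood side by side at -0.33 for fenbuconazole, -0.63 for imazalil and -0.03 for 2,4-D. The imazalil value was not tested against the others, since it had served to choose the gene.

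Below 10 µM TXNIP showed no trend that passed. Over the 24 arrays from 0.001 to 3 µM, its slope per 10-fold concentration on 201010_PM_s_at was 0.05 for fenbuconazole (SE 0.03), -0.04 for imazalil (SE 0.04) and 0.01 for 2,4-D (SE 0.02), each with an adjusted p of 1. Slopes differed by -0.09 (interval -0.19 to 0.02) between imazalil and fenbuconazole, by -0.06 (interval -0.15 to 0.04) between imazalil and 2,4-D, and by 0.03 (interval -0.05 to 0.11) between fenbuconazole and 2,4-D, with an adjusted p of 1 in each of these 3 pairs. Of the 17 probe sets 0 were called for any slope or slope difference, at 2, 1 and 0 with an unadjusted p under 0.05 for the slopes of fenbuconazole, imazalil and 2,4-D and 0 for each difference. The share of all probe sets called was 0% except for fenbuconazole against 2,4-D (0.00183%). Group means on this probe set at the 8 concentrations below 10 µM ran between 6.76 (0.003 µM) and 7.07 (1 µM) for fenbuconazole, between 7.43 (3 µM) and 7.73 (0.03 µM) for imazalil, and between 7.73 (0.003 µM) and 7.83 (0.03 µM) for 2,4-D. At 3 µM, TXNIP averaged 7.01 ± 0.25 in the fenbuconazole set, 7.43 ± 0.28 in the imazalil set and 7.80 ± 0.16 in the 2,4-D set (SD, n = 3 each), against 6.82 ± 0.26, 7.64 ± 0.18 and 7.76 ± 0.20 in the DMSO arrays of the same sets.

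ARRDC4, measured on 225283_PM_at, had its lowest group mean at 10 µM in all 3 sets. At 10 µM fenbuconazole it read 4.01, 3.85 and 3.61 in replicates 1, 2 and 3, against 4.31, 4.24 and 4.36 in DMSO. The groups did not overlap, as for 5.76% of all probe sets in that direction. The mean was 3.83 ± 0.20 at 10 µM and 4.30 ± 0.06 in DMSO, a change of -0.48 (SE 0.15, interval -0.79 to -0.17, adjusted p = 0.477). Against the other 8 concentrations it was -0.41 (SE 0.11, adjusted p = 0.398), and 3 of those 24 arrays lay below the highest array at 10 µM. Neither value passed. ARRDC4 was 1 of 17 probe sets of the 6 genes with all treated arrays below DMSO at this dose.

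At 10 µM imazalil ARRDC4 read 4.59, 4.54 and 5.07 in replicates 1, 2 and 3, and 5.02, 5.25 and 5.05 in DMSO. Replicates 1 and 2 were lower than every DMSO array and replicate 3 was not. The change was -0.37 (SE 0.14), at or below which lay 0.39% of all probe sets, and it was -0.57 without replicate 3 or -0.21 without replicate 2. At 10 µM 2,4-D it read 4.96, 5.05 and 5.14, against 5.08, 5.32 and 5.08 in DMSO, with overlap. That change was -0.11 (SE 0.12, interval -0.35 to 0.14, adjusted p = 1). Against the other 8 concentrations of 2,4-D it was -0.31 (SE 0.09, interval -0.50 to -0.13, adjusted p = 0.484), with 2 of 3 arrays below all 24 others. The lower 2,4-D groups stood above DMSO by 0.07 to 0.36, so the size of the ARRDC4 change in that set depended on the arrays it was set against. The difference between fenbuconazole and 2,4-D at 10 µM, each against its other 8 concentrations, was -0.10 (interval -0.40 to 0.21, adjusted p = 1).

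**Figure D2:**
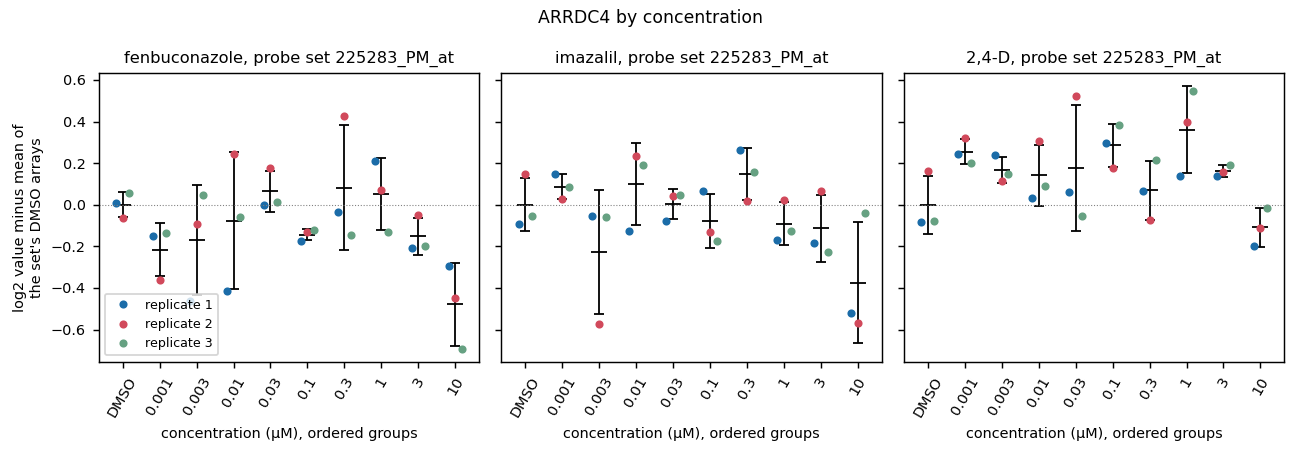
ARRDC4 in the fenbuconazole, imazalil and 2,4-D sets, drawn against concentration (µM, horizontal axis, evenly spaced groups that start with DMSO). The vertical axis gives the log2 difference from the DMSO mean of that set, with single arrays as points coloured by replicate number and the mean and SD of 3 arrays as bars; the 10 µM means stood at -0.48, -0.37 and -0.11, the lowest of each panel.

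Of the probe sets of the transcription factors, 0 of 11 passed the test against DMSO at 10 µM fenbuconazole or 2,4-D, as did 0% of all 54613. MLXIP, which encodes MondoA, had 2 probe sets well above its set's median, 225157_PM_at (77.1 to 79.2 percentile) and 202519_PM_at (74.2 to 74.8). On 225157_PM_at it read 5.94, 6.17 and 5.89 at 10 µM fenbuconazole in replicates 1, 2 and 3, against 5.99, 5.55 and 6.14 in DMSO, and the changes at 10 µM against DMSO were 0.11 (interval -0.17 to 0.38) for fenbuconazole, 0.02 (SE 0.10) for imazalil and 0.01 (interval -0.17 to 0.18) for 2,4-D. On 202519_PM_at the change for fenbuconazole was 0.27 (SE 0.15, adjusted p = 0.755) against DMSO and -0.03 against the other 8 concentrations. DMSO replicate 2 of that set, at 4.71, was the lowest of its 30 arrays. The dim MLXIP probe sets 1554886_PM_a_at and 211789_PM_s_at lay between the 7.4 and 38.6 percentile and stood at -0.14 to 0.08 relative to DMSO at 10 µM.

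MLX, the partner through which both sensors bind DNA, was bright on 213708_PM_s_at, 217910_PM_x_at and 217909_PM_s_at (80.8 to 92.0 percentile). On 213708_PM_s_at it read 8.16, 8.18 and 8.13 at 10 µM fenbuconazole in replicates 1, 2 and 3, and 8.19, 8.08 and 8.24 in DMSO. The log2 differences from DMSO at 10 µM on these 3 probe sets ran from -0.10 to 0.10 over the 3 chemicals. MLX 210752_PM_s_at and 231401_PM_s_at were higher at 10 µM fenbuconazole without overlap, at 0.41 (SE 0.16, adjusted p = 0.589) and 0.24 (SE 0.12, adjusted p = 0.713), as were 5.39% of all probe sets in that direction. Against the other 8 concentrations they stood at 0.12 and 0.25 (adjusted p = 0.969 and adjusted p = 0.643). Neither passed. At 10 µM 2,4-D, 1 MLX probe set, 217910_PM_x_at, was above DMSO without overlap (3.22% of all probe sets), by 0.05. MLX 1570347_PM_at, a dim probe set (38.8 to 49.5 percentile), had the highest of the 17 differences from DMSO at 10 µM 2,4-D. It read 3.56, 3.18 and 2.98 in replicates 1, 2 and 3, against 2.76, 3.00 and 3.08 in DMSO, with overlap, a difference of 0.29 (SE 0.17, adjusted p = 1), and it stood at 0.09 for fenbuconazole and 0.05 for imazalil.

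MLXIPL, which encodes ChREBP, the form best known from liver and adipose tissue, lay near the array median (46.5 to 55.1 percentile) on its only probe set, 221163_PM_s_at. Its log2 differences from DMSO at 10 µM were 0.15 (interval -0.17 to 0.47) for fenbuconazole, -0.22 (SE 0.16) for imazalil and -0.10 (interval -0.44 to 0.25) for 2,4-D. TXN, the thioredoxin that TXNIP binds, was among the brightest genes on 208864_PM_s_at (98.4 to 98.7 percentile). It read 10.43, 10.36 and 10.29 at 10 µM fenbuconazole in replicates 1, 2 and 3, against 10.46, 10.09 and 10.49 in DMSO. The changes were 0.01 (interval -0.18 to 0.21), -0.06 (SE 0.08) and -0.01 (interval -0.15 to 0.13) for fenbuconazole, imazalil and 2,4-D. The other TXN probe set, 216609_PM_at, stood at 0.09 (SE 0.24) for fenbuconazole, 0.17 (SE 0.19) for imazalil and 0.21 (SE 0.34) for 2,4-D.

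**Figure D3:**
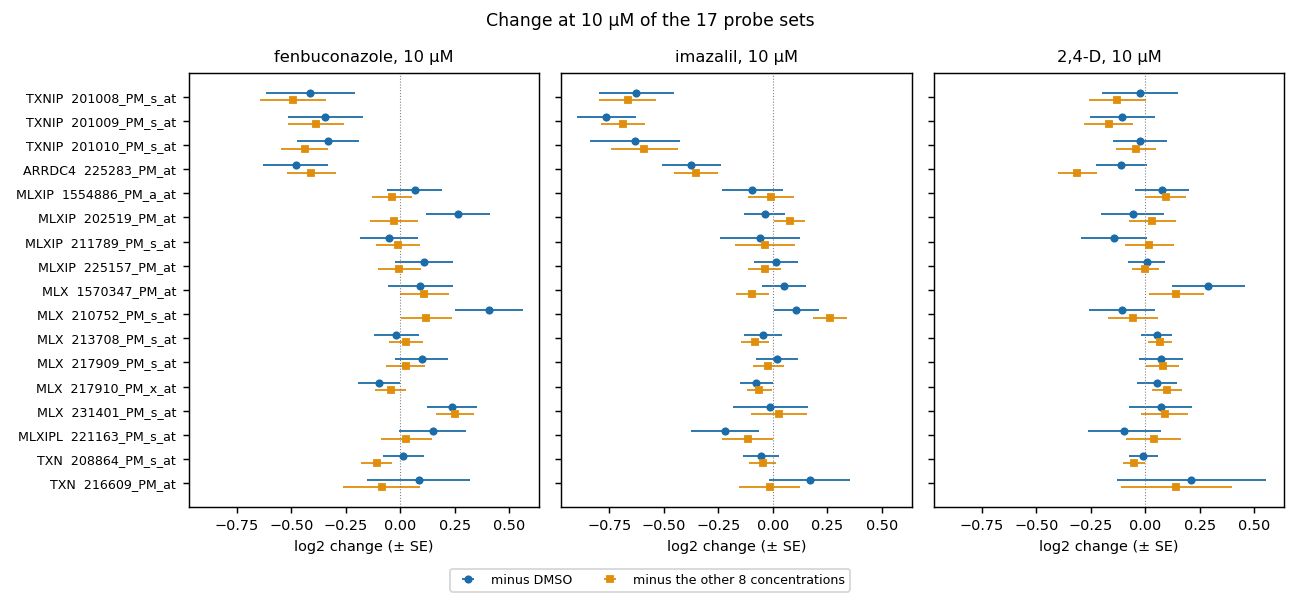
Log2 change at 10 µM (horizontal axis) of the 17 probe sets (rows) for fenbuconazole, imazalil and 2,4-D, minus DMSO (circles) and minus the other 8 concentrations (squares), with bars of 1 SE. The 4 probe sets of TXNIP and ARRDC4 lay between -0.48 and -0.33 against DMSO for fenbuconazole, between -0.76 and -0.37 for imazalil and between -0.11 and -0.02 for 2,4-D.

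Set side by side, the 4 probe sets of TXNIP and ARRDC4 were lower than DMSO in all 3 chemicals, with medians of -0.38 (fenbuconazole), -0.63 (imazalil) and -0.06 (2,4-D). The 13 probe sets of MLXIP, MLX, MLXIPL and TXN had medians of 0.09, -0.04 and 0.05. The median over all 54613 probe sets was between -0.01 and 0.01 in each. Of them, 90% lay between -0.25 and 0.26 for fenbuconazole, -0.20 and 0.21 for imazalil, and -0.20 and 0.19 for 2,4-D. Of the 4 probe sets, 3 are of TXNIP, which the imazalil contrast chose, and imazalil and 2,4-D share their DMSO arrays. The 3 chemicals are thus not 3 independent results.

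TXNIP differed between replicate numbers, with concentration in the model. In all 9 combinations of its 3 probe sets and 3 chemicals the 9 treated arrays of replicate 2 had the highest mean. On 201010_PM_s_at, imazalil arrays averaged 7.80 ± 0.22 in replicate 2, 7.44 ± 0.12 in replicate 3 and 7.36 ± 0.39 in replicate 1 (SD, n = 9 each), a range of 0.44 (moderated F over replicate numbers, limma, adjusted p = 0.0079). In 2,4-D arrays the means were 7.90 ± 0.08, 7.68 ± 0.09 and 7.73 ± 0.10 in replicates 2, 3 and 1 (range 0.22, adjusted p = 0.0317). In fenbuconazole arrays they were 7.01 ± 0.22, 6.80 ± 0.18 and 6.82 ± 0.23 (range 0.21, adjusted p = 0.209), which did not pass. On 201009_PM_s_at the ranges were 0.34 for fenbuconazole (adjusted p = 0.0255), 0.28 for 2,4-D (adjusted p = 0.00959) and 0.21 for imazalil (adjusted p = 0.0775), and on 201008_PM_s_at none passed (adjusted p = 0.0867 to 0.18).

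Of the 17 probe sets, 1, 1 and 2 were called between replicate numbers in the fenbuconazole, imazalil and 2,4-D sets, all of TXNIP, beside 0.797%, 1.85% and 2.88% of all probe sets. ARRDC4 ranged by 0.15, 0.08 and 0.09 over the replicate numbers (adjusted p = 0.621 to 0.824), with replicate 2 highest in 2 of 3 sets. The DMSO arrays, which these tests did not use, also had replicate 2 highest on 8 of 9 occasions, of which those of imazalil and 2,4-D are the same arrays. Run numbers in the labels fell in a separate range for each replicate number, so a difference between batches of cells and one between runs cannot be told apart. Without replicate 2 the imazalil and 2,4-D ranges were 0.08 (adjusted p = 0.759) and 0.06 (adjusted p = 0.642), and without replicate 1 or replicate 3 the 2,4-D call on 201010_PM_s_at was also lost (adjusted p = 0.0663 and adjusted p = 0.207). The calls on 201009_PM_s_at in fenbuconazole and 2,4-D were kept without replicate 1 and lost without replicate 2 and without replicate 3.

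**Figure D4:**
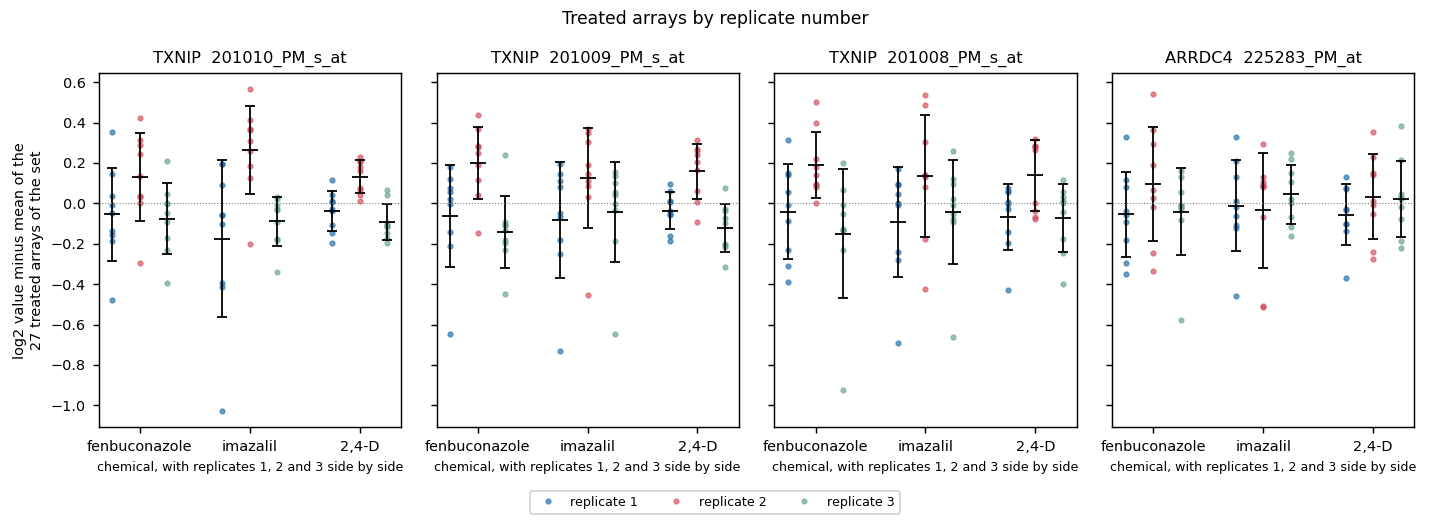
Log2 values of the 3 TXNIP probe sets and of ARRDC4 in treated arrays, minus the mean of the 27 treated arrays of the set (vertical axis), for fenbuconazole, imazalil and 2,4-D (horizontal axis). Points are single arrays coloured by replicate number and bars the mean and SD of 9 arrays. Replicate 2 had the highest mean in each of the 9 TXNIP groups, with a range of 0.44 on 201010_PM_s_at in imazalil.

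Replicate number and concentration together accounted for most of the spread of TXNIP on 201010_PM_s_at. Concentration took 58.3% of the sum of squares of the 27 fenbuconazole arrays and replicate number 18.2%, whereas in the 2,4-D arrays concentration took 5.94% and replicate number 56.0%. In imazalil the shares were 43.5% and 36.3%, but 77.7% and 11.8% on 201009_PM_s_at and 66.4% and 12.3% on 201008_PM_s_at. On 201009_PM_s_at they were 42.1% and 36.2% in fenbuconazole and 22.2% and 52.2% in 2,4-D. On 201008_PM_s_at they were 45.7% and 27.2% in fenbuconazole and 30.1% and 27.3% in 2,4-D. With 9 concentrations fitted to 27 arrays, such shares are well above 0 without any effect. Among all probe sets of the genes followed here, the concentration share in fenbuconazole arrays ran from 8.96% (MLX, 213708_PM_s_at) to 59.3% (TXN, 208864_PM_s_at). The share of 58.3% therefore does not by itself set TXNIP apart or show a response to fenbuconazole. The 3 TXNIP probe sets ran together across the 27 treated arrays of a set, with r of 0.67 to 0.73 for fenbuconazole, 0.81 to 0.91 for imazalil and 0.42 to 0.67 for 2,4-D. With concentration and replicate means removed, r was -0.10 to 0.16 for fenbuconazole, 0.42 to 0.53 for imazalil and -0.22 to 0.60 for 2,4-D. These are descriptions over arrays that share concentrations and replicates.

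The other genes of the axis were described with 6 lists of 77 genes, of which 73 had a probe set named here. At 10 µM against DMSO, limma called 0 of them for fenbuconazole and 0 for 2,4-D, and 0 along the slope of any chemical. In each of these comparisons 0% of all 54613 probe sets were called, so the counts do not set these genes apart. For imazalil at 10 µM only values are given. Of the 18 MondoA and ChREBP targets, 12 were lower and 6 higher at 10 µM fenbuconazole (median -0.05), 10 lower and 8 higher at 10 µM imazalil (median -0.02) and 10 lower and 8 higher at 10 µM 2,4-D (median -0.01). Those with the largest changes were PNPLA3, a lipid droplet lipase (0.53 for fenbuconazole, SE 0.19, adjusted p = 0.565), ACACB, the mitochondrial acetyl-CoA carboxylase (-0.40 for imazalil, SE 0.12), and KLF10, a zinc finger repressor (-0.28 for fenbuconazole, SE 0.23, adjusted p = 0.854). The list was thus split in direction for all 3 chemicals.

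Among the 3 other alpha-arrestins measured, ARRDC1 stood at 0.34 for fenbuconazole (SE 0.15, adjusted p = 0.665), ARRDC3 at -0.22 and ARRDC2 at -0.19. Of 15 genes of glucose uptake and glucose 6-phosphate metabolism, 11 were lower at 10 µM fenbuconazole (median -0.12) against 10 for imazalil (median -0.03) and 8 for 2,4-D (median -0.02). G6PC3, a phosphatase of glucose 6-phosphate, was at -0.37 for fenbuconazole (SE 0.08, adjusted p = 0.314), HKDC1, a hexokinase-like protein, at -0.27 (adjusted p = 0.775) and HK3, a hexokinase, at 0.28 for 2,4-D (adjusted p = 1). Against the other 8 fenbuconazole concentrations the median of this list was 0.01. In the thioredoxin system, 9 of 13 genes were higher at 10 µM fenbuconazole (median 0.04), against 8 for imazalil (median 0.02) and 3 for 2,4-D (median -0.01). The largest changes were at 10 µM fenbuconazole, with -0.29 for MAP3K5 (ASK1, a kinase held by thioredoxin). There TXNRD2, the mitochondrial thioredoxin reductase, stood at -0.17 and SRXN1, a sulfiredoxin, at 0.17.

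In the network of MAX and MLX partners, 5 of 10 genes were higher at 10 µM fenbuconazole (median 0.02), led by MYCN (0.30, SE 0.10, adjusted p = 0.538) and MXD3 (0.15), and MXD1 stood at -0.12 for 2,4-D. Among 14 regulators and partners of TXNIP, DDIT4, an mTORC1 inhibitor, was at -0.43 for fenbuconazole (SE 0.23, adjusted p = 0.74). Against the other 8 fenbuconazole concentrations it was at -0.56, which did not pass (adjusted p = 0.526) and passed with the replicate number as a block (adjusted p = 0.000263). NLRP3, the inflammasome sensor that TXNIP can bind, was at -0.35 for 2,4-D (SE 0.18, adjusted p = 1), and PRKAA2, an AMPK catalytic subunit, at 0.25 for fenbuconazole (adjusted p = 0.776). The median of that list was -0.03 for fenbuconazole, -0.04 for imazalil and 0.01 for 2,4-D.

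The genes whose pattern was most like that of TXNIP were found by Pearson's r with 201010_PM_s_at over the 81 treated arrays, after the mean of each set and replicate number had been removed. The highest were NFE2L1, a regulator of proteasome genes (r = 0.68), CTH, the cystathionine gamma-lyase (0.64), DDIT4 (0.62), CHAC1, a glutathione-degrading enzyme (0.62), and EGR1, an immediate early transcription factor (0.62). The lowest were MT1F, a metallothionein (-0.65), SGK1, a serum-induced kinase (-0.59), INSIG1, an inhibitor of sterol regulatory element processing (-0.55), IDH1, the cytosolic isocitrate dehydrogenase (-0.51), and SLC6A6, the taurine transporter (-0.51). Over 54612 probe sets the 1st and 99th percentiles of r were -0.31 and 0.35. The other TXNIP probe sets reached 0.69 and 0.65 and ARRDC4 0.46, while the 13 probe sets of MLXIP, MLX, MLXIPL and TXN ranged from -0.25 to 0.28.

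These r are descriptions over arrays that share concentrations and replicate numbers, and they rest in part on the 10 µM arrays. Without them, over 72 arrays, r was 0.57 for NFE2L1, 0.49 for CTH, 0.46 for DDIT4, 0.38 for CHAC1, 0.20 for EGR1 and 0.19 for ARRDC4, and -0.42 for MT1F, -0.27 for SGK1, -0.47 for INSIG1, -0.37 for IDH1 and -0.17 for SLC6A6. The other TXNIP probe sets had r of 0.40 (201008_PM_s_at) and 0.38 (201009_PM_s_at) over these 72 arrays. With the imazalil arrays left out instead, r was 0.62 for NFE2L1 and CTH, 0.68 for DDIT4, 0.56 for CHAC1, 0.59 for EGR1 and 0.46 for ARRDC4. It was then -0.56 for MT1F, -0.49 for SGK1, -0.52 for INSIG1, -0.55 for IDH1 and -0.39 for SLC6A6. All these r also depend on the removal of replicate means. With the set means alone removed, r over the 81 arrays was 0.19 for INSIG1, 0.08 for IDH1, -0.26 for SLC6A6 and 0.25 for EGR1, while it was -0.68 for MT1F, -0.64 for SGK1 and 0.64 to 0.73 for NFE2L1, CTH, DDIT4 and CHAC1. Within the 27 2,4-D arrays r was -0.02 for CTH and -0.18 for ARRDC4, against 0.75 and 0.69 within the 27 fenbuconazole arrays and 0.74 and 0.50 within the 27 imazalil arrays. In those 2,4-D arrays the other TXNIP probe sets themselves had r of 0.075 (201008_PM_s_at) and -0.034 (201009_PM_s_at). An r near 0 in that set therefore does not set CTH or ARRDC4 apart from TXNIP. For NFE2L1 r was 0.65, 0.77 and 0.55 in fenbuconazole, imazalil and 2,4-D.

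**Figure D5:**
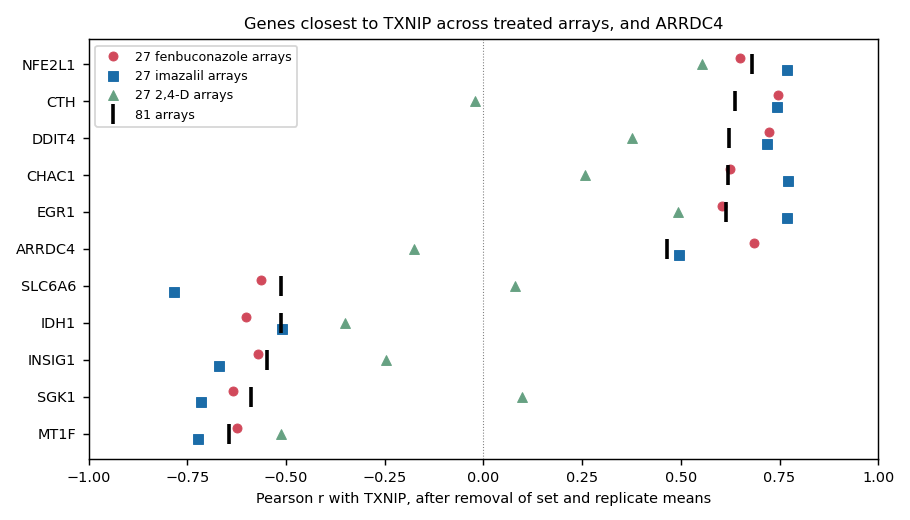
Pearson r with TXNIP (201010_PM_s_at, horizontal axis) of the 5 genes with the highest and the 5 with the lowest r, and of ARRDC4 (rows), over the 27 arrays of each chemical and over all 81, after set and replicate means were removed. In 2,4-D arrays CTH (-0.02) and ARRDC4 (-0.18) lay near or below 0, while NFE2L1 was above 0.5 in each set. The other TXNIP probe sets, not drawn, had r of 0.075 and -0.034 in 2,4-D arrays.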

How the data were processed

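RNA of each sample was measured on an Affymetrix HT HG-U133+ PM array. The authors deposited log2 values per probe set, made with RMA in Partek (versions not given in the sources used here) for the 30 columns of 1 chemical at a time. All 90 columns were used as deposited. Of 54715 probe sets, 102 manufacturer controls were left out. The platform annotation gave 40914 of the rest 1 symbol, 864 several and 12835 none. The suffixes s_at and x_at mark probe sets that may detect other transcripts too.

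For each chemical, limma 3.58.1 in R 4.3.3 fitted its groups and gave contrasts, slopes on log10 concentration over 24 arrays, and the F test over replicate numbers on 27 treated arrays. The differences between chemicals came from joint fits. Benjamini-Hochberg adjustment ran over 54613 probe sets, and over the 3 pairs for slopes, at a threshold of 0.05. Intervals are at 95% and unadjusted. P-values measure the spread between these samples, and 3 arrays per group limit the precision. In lists, a gene was its probe set with the highest mean. The text names every probe set of the 6 genes, the 3 largest changes of each list, and the 5 highest and 5 lowest r. The members and lists were chosen with earlier results of these data known. The code was tested on simulated data. Plots were made in Python 3.11.15 with matplotlib 3.10.9.

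Alternatives were a replicate block, a filter on dim probe sets, trended and robust eBayes, weighting of arrays, renewed quantile normalization, array medians set equal, other TXNIP probe sets, the spread of only the 6 columns compared, and omission of each replicate number. Omission of single arrays was added after seeing the data.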

Additional observations from a re-analysis of the deposited data

How the results depend on the processing

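Of 257 values under alternatives, 21 changed direction, crossed the threshold or moved beyond the replicate spread. The calls that moved were those of TXNIP between replicate numbers. In 2,4-D the range was 0.22 with equal array medians (adjusted p = 0.0533) and 0.21 on 201008_PM_s_at, neither of which passed, and it ran from 0.0554 to 0.2246 when a replicate was left out. In imazalil it was 0.23 on 201008_PM_s_at and 0.21 on 201009_PM_s_at, neither called, and 0.0847 to 0.4391 with a replicate left out. In fenbuconazole it was 0.34 on 201009_PM_s_at, which passed. Small values changed sign. The 2,4-D slope of TXNIP was -0.0010 on 201008_PM_s_at and -0.0244 on 201009_PM_s_at, and ran from -0.0052 to 0.0267 with a replicate left out. The difference between the imazalil and 2,4-D slopes was 0.0021 on 201009_PM_s_at and ran from -0.0957 to 0.0197, the fenbuconazole minus 2,4-D slope from -0.0059 to 0.0601 and the imazalil slope from -0.0689 to 0.0145. TXNIP at 10 µM 2,4-D ran from -0.1317 to 0.0675 against DMSO and from -0.0959 to 0.0354 against the other 8 concentrations. ARRDC4 at 10 µM imazalil ran from -0.5703 to -0.2052. The causes were not tested.

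With the replicate block, TXNIP at 10 µM fenbuconazole stood at -0.33 (SE 0.12, adjusted p = 0.498) against DMSO and at -0.44 (SE 0.09, adjusted p = 0.0799) against the other 8 concentrations, and the block changed no call of TXNIP or ARRDC4 at 10 µM. Over all probe sets at 10 µM fenbuconazole, limma called 4 with the block and 0 without it against DMSO, 21 and 2 against the other 8 concentrations, and 5 and 0 for the difference from 2,4-D. DDIT4 was among the 21 (-0.56, adjusted p = 0.000263) and among the 5 (-0.62, adjusted p = 0.000169). By the methods the 3 replicates came from independent cell batches, but no label ties a replicate number to a batch. The number was not used as a block in the values of the report, except where a block is named. Those fits therefore keep the difference between replicate numbers within their spread. Deviations of same-numbered arrays had a mean r of 0.042 to 0.0781 and 37, 46 and 52 of 135 pairs were over 0.1 in fenbuconazole, imazalil and 2,4-D. As a hint from the data, 25, 30 and 30 of 30 arrays were closest to their own number.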
